A study of Mus musculus with 2 samples.

Results

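The genes described here are 10 genes of mouse that cells switch on within minutes of a stimulus or under stress. Of these, 8 are immediate early genes, named Fos, Fosb, Jun, Junb, Egr1, Ier2, Atf3 and Dusp1, and the other two, Hspa1a and Hspa1b, encode the heat-inducible form of the chaperone Hsp70. They were chosen by name rather than by a cut on their values, with earlier results of these data known. All 10 were among the 43346 genes listed in the deposited tables. Total RNA-seq, the title the labels give the assay, had been carried out on the hindbrain of B6NCrl mouse embryos aged 14.5 days, in 2 biological replicates. The hindbrain forms the cerebellum, pons and medulla. The labels name no treatment, mutation or second condition, so both replicates form 1 group. Per the labels, each library came from the hindbrain of 1 pup, the pups were collected on different dates, and the sex is given as pooled. Collection date and replicate therefore cannot be told apart. The libraries held 34929425 and 33510896 expected counts. Of the hindbrain position markers, 6 of 7 were detected, against 0 of 4 forebrain markers, whose highest mean was 0.22 TPM, an abundance corrected for transcript length and library size.

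Immediate early genes are transcribed without the need for new protein, after growth factors, calcium entry or stress activate kinases that act on factors already bound at their promoters. Fos and Jun proteins pair to form the transcription factor AP-1, Egr1 is a zinc finger factor, and Dusp1 is a phosphatase that switches the upstream kinases off again. Heat shock genes follow a separate route, in which unfolded protein releases heat shock factor 1 to bind elements upstream of Hspa1a and Hspa1b. In the brain, immediate early genes are used as markers of neuronal activity, and both groups are known to respond to tissue handling.

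At least 1 TPM in both replicates, the limit of detection used here, was reached by 8 of the 10 genes, all except Fosb and Hspa1b. Of the 21474 protein-coding genes, 62.5% reached it. From high to low, the mean levels ran in the order Jun, Dusp1, Ier2, Hspa1a, Junb, Egr1, Fos, Atf3, Hspa1b and Fosb. Most were low for expressed genes of this tissue: the 15088 detected genes had a median of 17.2 TPM with quartiles of 5.64 and 45.6 TPM, and only Jun and Dusp1 lay above that median. Of the detected genes, 63.0% lay below Jun, 60.2% below Dusp1, 46.4% below Ier2, 31.1% below Hspa1a, 22.1% below Junb, 12.4% below Egr1, 10.7% below Fos and 1.51% below Atf3. The 8 immediate early genes summed to 79.02 TPM in replicate 1 and 79.16 TPM in replicate 2. Jun, Dusp1 and Ier2 held 86.7% and 85.0% of those sums. In the order of levels, the ranges of neighbouring genes over the replicates overlapped for Egr1 and Fos only. The credibility intervals deposited with each value, whose level is not stated, also overlapped for Jun and Dusp1 in both replicates, and for Hspa1a and Junb and for Fos and Atf3 in replicate 1. In bulk tissue, fewer cells of a type and less RNA per cell cannot be told apart.

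**Figure D1:**
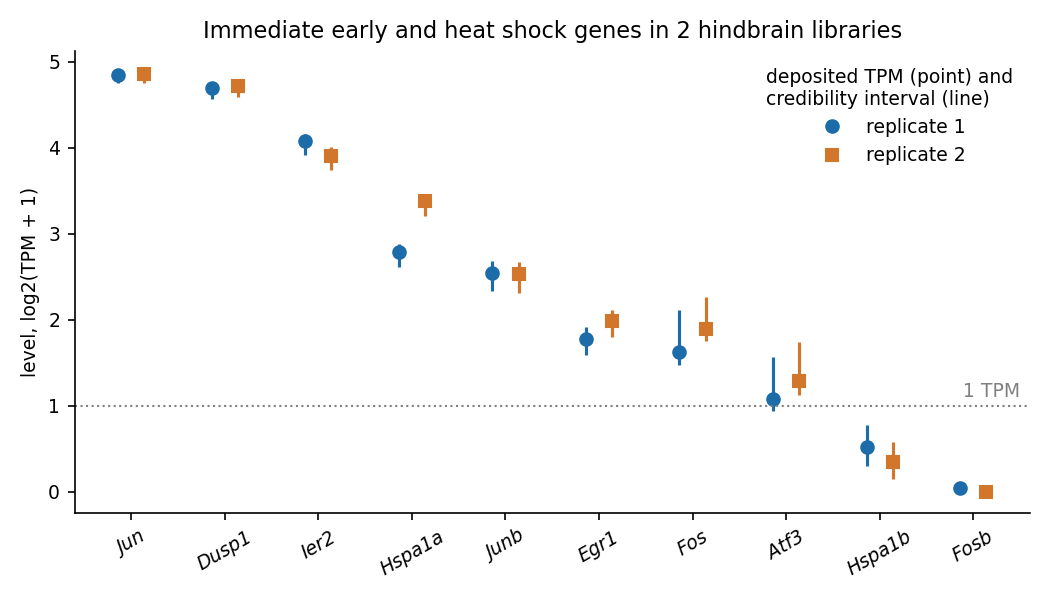
Circles (replicate 1) and squares (replicate 2) give each gene's level on the log2(TPM + 1) scale, in order of the mean. Vertical lines are the deposited credibility intervals, which surround the authors' posterior mean rather than the TPM, and the dotted line marks 1 TPM. Jun and Dusp1 sit together at the top, and Fosb and Hspa1b lie under the line in both replicates.

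Rounded expected counts of the 2 replicates were compared by an exact binomial test, two-sided, which sets each gene's difference against the noise of counting and compares these libraries only, not conditions. At a Benjamini-Hochberg adjusted p below 0.05 over the 17664 genes tested, 2 of the 9 members tested were called, against 34.4% of all genes. Hspa1a was the 1 member higher in replicate 2, a call made for 15.7% of all genes, and Ier2 the 1 member lower in replicate 2, a call made for 18.7%. The share of the members called was thus not above that of all genes. Calls depend on counts: 23.3% of all genes were called with no filter and 39.7% at a mean of at least 50 counts. Some members had low counts, such as Atf3 with 45 and 53, so these shares compare genes of unlike counts. The same limit holds for the gene lists below. Fosb had too few counts to be tested. On the log2(TPM + 1) scale the members' median difference, replicate 2 minus replicate 1, was 0.02, and that of all genes tested was 0.04. The call for Ier2 was lost with 3 other scalings of the libraries, in the same exact test (adjusted p = 0.0586 for TMM, 0.0626 for DESeq2's size factors and 0.310 for totals of the spike-ins). With spike-in totals, which moved the median of all genes by 0.12 on the log2 scale, Fos was called in its place (adjusted p = 0.0172; log2 ratio of counts 0.61, beside a median of 0.10 over all genes at that scaling). Of all calls, 45.7% were of genes higher in replicate 2 with the gene total and 80.6% with spike-in totals. Spike-in totals called 35.2% of all genes higher and 8.46% lower, the shares beside which the gene lists' counts with spike-in totals stand, as 15.7% and 18.7% are for the gene total.

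**Figure D2:**
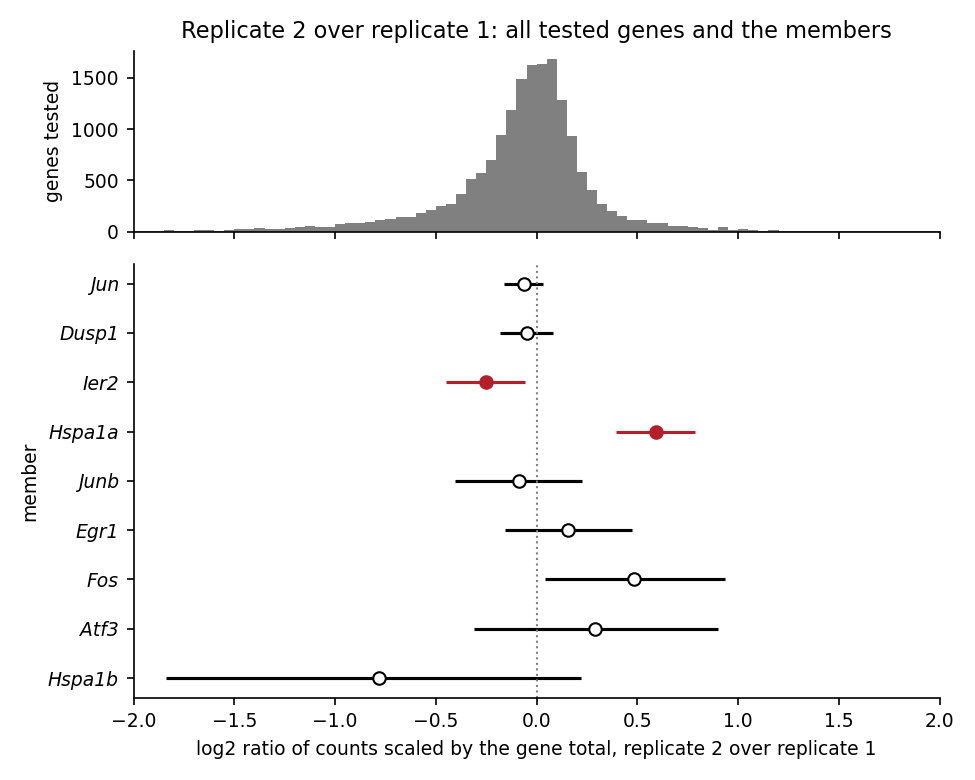
Top, number of tested genes by log2 ratio of scaled counts, replicate 2 over replicate 1, drawn from -2 to 2, with 99 genes beyond those limits. Bottom, the same ratio for the 9 members tested, with exact 95% intervals for counting error; filled red points are the calls, Hspa1a higher and Ier2 lower in replicate 2, and open points are not called.

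Fos, the founding partner of AP-1 and a common readout of recent neuronal activity, was present at 2.09 TPM in replicate 1 and 2.72 TPM in replicate 2, from 75 and 101 counts. Its mean was 2.41 ± 0.45 TPM (SD, n = 2). Replicate 2 was the higher, by 1.40-fold in counts scaled by the gene total (95% interval 1.03 to 1.91), and the exact test did not call it (adjusted p = 0.0756). Fosb, a second Fos protein whose stable splice form builds up with repeated activity in the adult brain, was at 0.03 TPM and 0 TPM, from 2 counts and 0 counts. Both values lay under the level that 3 counts would give, 0.0384 and 0.0420 TPM, so Fosb was not detectable at this depth. Fos lies at chr12:85473890-85477273 on the plus strand and Fosb at chr7:19302696-19310051 on the minus strand (GRCm38). Their proximal promoters, the 150 bases before the RefSeq start (GRCm38.p6), are shown because both genes are known to respond through cyclic AMP response elements. Capitals mark the core of that element, TGACG, and in Fos also the TATA box. Fos is read from chr12:85473740-85473889 on the plus strand and Fosb from chr7:19310046-19310195 on the minus strand.
Fos: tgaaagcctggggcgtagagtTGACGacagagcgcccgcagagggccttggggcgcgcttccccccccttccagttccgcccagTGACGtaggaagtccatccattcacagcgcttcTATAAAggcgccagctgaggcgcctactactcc
Fosb: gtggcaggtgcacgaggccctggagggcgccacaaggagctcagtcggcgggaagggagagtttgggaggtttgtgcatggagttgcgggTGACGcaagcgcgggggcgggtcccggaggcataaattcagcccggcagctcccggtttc

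The Fos TPM was not all assigned to the coding transcript. Fos-201, which encodes the protein, held 73.8% of the gene's TPM in replicate 1 and 91.5% in replicate 2. A shorter processed transcript without an annotated coding sequence, Fos-204, held 25.7% and 8.46%. The coding transcript alone stood at 1.55 and 2.49 TPM, with credibility intervals of 1.06 to 1.86 and 1.89 to 2.87 TPM that did not overlap, as for 11.9% of the 42680 transcripts with a mean of at least 10 counts. The intervals of Fos-204, 0.0229 to 1.11 and 0.0121 to 0.775 TPM, did overlap. With the authors' posterior mean in place of TPM, the mean share of Fos-201 over the replicates was 67.1% rather than 82.7%. Among the 10 genes, 6 have a single transcript in the tables.

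Jun, the protein that pairs with Fos and is switched on by Jun kinases, was the highest of the 10 genes. It had 27.83 TPM in replicate 1 and 28.00 TPM in replicate 2, from 1838 and 1691 counts, and a mean of 27.9 ± 0.12 TPM (SD, n = 2). The 2 replicates were close, with a ratio of 0.956 in scaled counts (0.895 to 1.02) and no call (adjusted p = 0.325, exact test). Junb, a Jun protein known to act against Jun at some targets, stood at 4.81 and 4.76 TPM, from 179 and 162 counts, with an SD of 0.035 TPM (n = 2) and no call (adjusted p = 0.721, exact test). Jun lies at chr4:95049034-95052222 on the minus strand and Junb at chr8:84974484-84978718 on the minus strand (GRCm38). A noncoding gene read from the other strand, Junos, overlaps the start of Jun; it had 1.61 and 1.40 TPM, and 4.30% of the 100-base windows of the Jun transcript occur in it on the other strand. The counting is not stated to use strand, so reads of the overlap cannot be told apart. Prdx2, an abundant gene at 952 and 914 TPM, overlaps the end of Junb on the opposite strand in the GENCODE M21 gene models. No 100-base window of the M21 Junb transcript occurs in another transcript. That transcript has 1809 bases, whereas the Junb transcript of the deposited values has 1840 bases, so the search did not cover the counted one exactly. The 150 bases before the Jun start (RefSeq, GRCm38.p6, chr4:95052223-95052372, minus strand) are shown because Jun protein is known to act on its own promoter through an AP-1-like element, here TGACATCA in capitals.
Jun: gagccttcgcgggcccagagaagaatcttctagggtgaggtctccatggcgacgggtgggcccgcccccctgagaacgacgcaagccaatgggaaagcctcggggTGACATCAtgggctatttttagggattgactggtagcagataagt

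RNA of the Jun genes exceeded that of the Fos genes. The 3 Jun genes summed to 81.33 and 88.84 TPM and the 4 Fos genes to 3.04 and 4.08 TPM, a ratio of 26.8 in replicate 1 and 21.8 in replicate 2. Jund, a Jun protein expressed in most resting cells, was the largest of them at 48.69 and 56.08 TPM and held 59.9% and 63.1% of the Jun sum; Jun held 34.2% and 31.5% and Junb 5.91% and 5.36%. Fos held 68.8% and 66.7% of the Fos sum. Of the 10 other AP-1 genes measured, 4 were detected. After Jund, those with the highest means were the small Maf proteins Mafg at 27.07 and 29.69 TPM and Mafk at 5.62 and 6.34 TPM, and then Batf3, known mainly from dendritic cells, at 1.77 and 1.22 TPM. With the gene total, Jund was the only AP-1 gene other than the members to be called, higher in replicate 2 by 1.09-fold (adjusted p = 0.00273, exact test) among 9 tested; with spike-in totals 3 of the 9 were called higher.

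**Figure D3:**
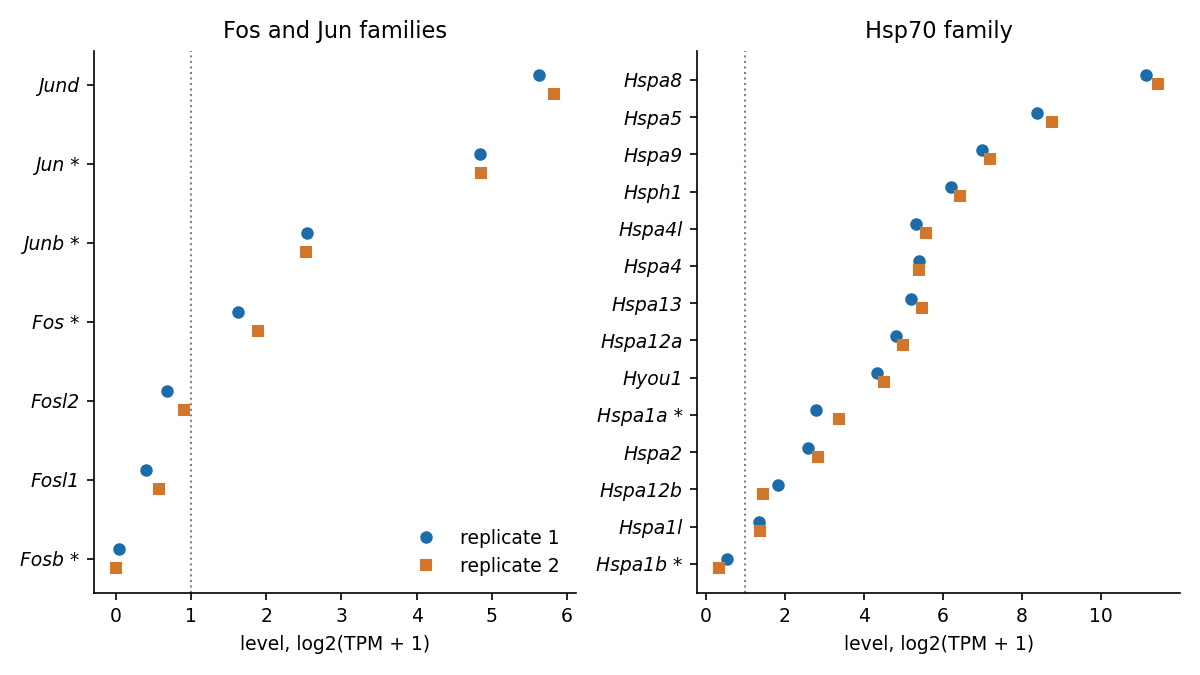
Circles (replicate 1) and squares (replicate 2) give the levels, on the log2(TPM + 1) scale, of the Fos and Jun genes (left) and the Hsp70 genes (right), ordered by mean; asterisks mark the genes described here and the dotted line marks 1 TPM. Jund lies above Jun, and Hspa8 at 2265 and 2769 TPM lies far above Hspa1a and Hspa1b.

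Egr1, a zinc finger factor of growth and synaptic plasticity, had 2.43 and 2.96 TPM, from 165 and 177 counts, with a mean of 2.70 ± 0.37 TPM (SD, n = 2). The ratio of scaled counts, 1.12 (0.897 to 1.39), had an interval on both sides of 1 (adjusted p = 0.485, exact test). Its transcript Egr1-202 held 83.5% and 91.6% of the TPM and the longer Egr1-201 the rest. Of the Egr relatives and their Nab corepressors, 2 of 5 were detected. Nab1 stood at 10.43 and 8.81 TPM, Nab2 at 1.85 and 2.07 TPM, Egr2, which also marks rhombomeres of the earlier hindbrain, at 1.37 and 0.91 TPM, and Egr3 at 0.07 and 0.19 TPM. Nab1 was lower in replicate 2, by a fold of 0.791 (adjusted p = 8.153e-05, exact test), 1 call among 3 genes tested. The median log2 ratio of TPM + 1 over the 5 was 0.10, while that of scaled counts over the 3 tested was -0.34.

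Ier2, a nuclear protein of early growth factor responses, was the third highest of the 10. It stood at 15.88 TPM in replicate 1 and 14.02 TPM in replicate 2, from 483 and 390 counts, with a mean of 15.0 ± 1.3 TPM (SD, n = 2). Replicate 2 was the lower, with a ratio of 0.839 in scaled counts (0.733 to 0.961; adjusted p = 0.0323, exact test). Of the genes tested, 31.3% differed by as much or more, and the credibility intervals of 14.1 to 16.9 and 12.3 to 15.0 TPM overlapped. Ier2 lies at chr8:84661331-84662852 on the minus strand (GRCm38).

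Atf3, a factor induced by injury and by the integrated stress response, was the lowest of the detected members. It lies at chr1:191170296-191218039 on the minus strand (GRCm38). It had 1.12 and 1.44 TPM, from 45 and 53 counts, and a mean of 1.28 ± 0.23 TPM (SD, n = 2), close to the limit of detection in replicate 1. The ratio of scaled counts was 1.22 with a wide interval, 0.807 to 1.86 (adjusted p = 0.520, exact test). All of its TPM was given to Atf3-201, but with the posterior mean this transcript held 62.1%, and its other 2 transcripts the rest. Of 16 other genes of the integrated stress and unfolded protein responses, 15 were detected. Atf4, the factor that drives Atf3 in that response, stood at 80.46 and 89.75 TPM. Xbp1, the factor spliced when the endoplasmic reticulum is stressed, had 105.11 and 134.73 TPM, the asparagine synthetase Asns 94.92 and 104.44 TPM, and Herpud1, which serves the removal of misfolded protein, 53.04 and 63.38 TPM. The list had 4 genes called higher and 1 lower of 16 tested, with a median log2 ratio of TPM + 1 of 0.15; spike-in totals gave 9 higher and 0 lower.

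Dusp1, which removes phosphate from the p38, Jun and Erk kinases and so ends the signal that induces it, was the second highest. It lies at chr17:26505590-26562128 on the minus strand in the GENCODE M21 model, which Ergic1, at 77.84 and 85.53 TPM, overlaps on the opposite strand; no 100-base window of the Dusp1 transcript occurs in another transcript. It had 24.83 and 25.26 TPM, from 979 and 910 counts, with an SD of 0.30 TPM (n = 2). The ratio of scaled counts was 0.966 (0.882 to 1.06) and there was no call (adjusted p = 0.613, exact test). Its coding transcript Dusp1-202 held 92.0% and 90.8%, and 2 transcripts annotated as retaining an intron, Dusp1-204 and Dusp1-203, held 4.95% and 5.27%, and 3.06% and 3.96%. Of 11 other dual specificity phosphatases, 10 were detected. Dusp8, which acts on Jun kinases, exceeded Dusp1 at 105.03 and 114.32 TPM, as did Dusp4 at 35.12 and 30.40 TPM. Dusp6, the Erk phosphatase induced by fibroblast growth factor, had 21.42 and 25.03 TPM, and Dusp3 had 18.86 and 19.88 TPM. In this list of 11 tested, 3 genes were called higher and 2 lower in replicate 2, against 6 higher and 1 lower with spike-in totals, and the median log2 ratio of TPM + 1 was 0.13.

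**Figure D4:**
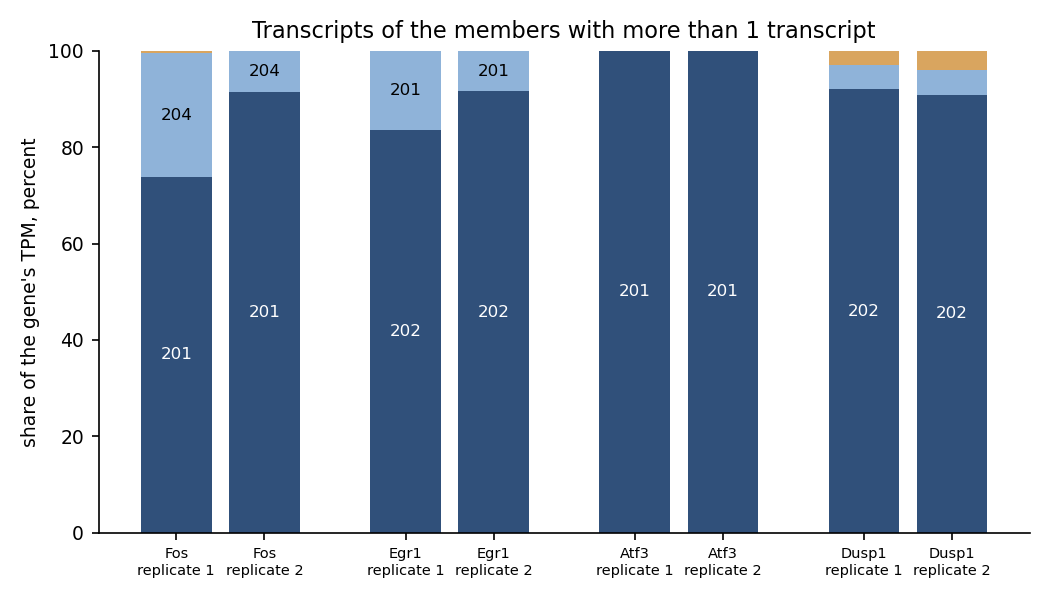
Share of each gene's TPM held by its transcripts, in percent, for the 4 members with more than 1 transcript, in replicate 1 and replicate 2; numbers in the bars are the transcript numbers. Fos-204 holds 25.7% in replicate 1 and 8.46% in replicate 2, while the split of Dusp1 is nearly the same in both.

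Hspa1a and Hspa1b encode almost the same inducible Hsp70 protein and lie beside each other on chromosome 17, Hspa1a at chr17:34969190-34972156 and Hspa1b at chr17:34956436-34959238, both on the minus strand (GRCm38). Hspa1a had 5.93 TPM in replicate 1 and 9.39 TPM in replicate 2, from 363 and 526 expected counts, with a mean of 7.66 ± 2.45 TPM (SD, n = 2). Replicate 2 was the higher by 1.51-fold in scaled counts (1.32 to 1.73; adjusted p = 2.860e-08, exact test), the largest difference among the members called. Its credibility intervals, 5.09 to 6.35 and 8.25 to 9.86 TPM, did not overlap between replicates; those of the other 9 genes did, and 22.6% of the genes tested had intervals that did not overlap. Of all genes tested, 11.1% differed by as much or more. Hspa1b had 0.44 and 0.27 TPM, from 25.3 and 14.3 expected counts, with a mean of 0.355 ± 0.120 TPM (SD, n = 2), and was not called (ratio 0.582, 0.280 to 1.16; adjusted p = 0.217, exact test). The 250 bases before each start are shown (RefSeq, GRCm38.p6, minus strand; Hspa1a from chr17:34972157-34972406, Hspa1b from chr17:34959239-34959488), because genes with such different RNA levels have nearly the same upstream sequence. Capitals mark a match to the heat shock element, GAANNTTC.
Hspa1a: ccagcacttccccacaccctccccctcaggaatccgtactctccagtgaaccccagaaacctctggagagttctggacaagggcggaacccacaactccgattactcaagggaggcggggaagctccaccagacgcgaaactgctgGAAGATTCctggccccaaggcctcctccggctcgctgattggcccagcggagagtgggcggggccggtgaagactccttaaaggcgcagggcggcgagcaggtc
Hspa1b: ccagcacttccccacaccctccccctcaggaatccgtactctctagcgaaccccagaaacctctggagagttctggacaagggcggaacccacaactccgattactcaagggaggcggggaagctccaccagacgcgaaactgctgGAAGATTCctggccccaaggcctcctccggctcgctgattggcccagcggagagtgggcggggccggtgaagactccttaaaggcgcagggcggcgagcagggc

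In the 300-base windows that run from 250 bases before to 50 bases after each start, 296 bases were identical. Counted from 1 at the 5′ end, with the base of Hspa1a first, the differences were C44T, T47C and T249G upstream of the start and C276T after it. The heat shock element began at position 147 in both. The coding sequences were alike as well: over 1929 aligned bases, 1918 (99.4%) were identical, 8 differed and 3 lay in gaps. The untranslated ends after the stop codon differ in length, 810 bases in Hspa1a and 643 bases in Hspa1b. This bears on the counts, because 47.1% of the 100-base windows of the Hspa1a transcript also occur in Hspa1b and a read from them cannot be placed in 1 gene. Hspa1a has 1518 windows that are not in Hspa1b, and Hspa1b has 1354 that are not in Hspa1a; with its neighbour Hspa1l counted as well, the shared part of Hspa1a was 48.6%. The division of the shared reads was made by the authors' estimate. In both replicates the credibility interval of Hspa1a lay above that of Hspa1b, which was 0.227 to 0.712 TPM and 0.109 to 0.498 TPM. Hspa1a held 93.1% and 97.2% of the pair's TPM. Taken as a pair, which does not depend on the division between these 2 genes, they had 6.37 TPM in replicate 1 and 9.66 TPM in replicate 2. The pair had 389 and 541 rounded counts, with replicate 2 higher by 1.45-fold (95% interval 1.27 to 1.65).

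Several genes near the pair overlap it or share sequence with it. Gm20481 and Gm10501 match the pair in the reverse orientation and could add reads if strand was not used. Hspa1l shares 100-base windows with both genes in the same orientation, so use of strand would not separate those reads. Gm20481, annotated within Hspa1a on the opposite strand, had 0 counts in both replicates. Hspa1l, a testis-enriched Hsp70 gene that starts beside Hspa1a on the other strand, had 1.55 and 1.60 TPM and was not called (adjusted p = 0.930, exact test). Gm10501, which lies on the minus strand as the pair does, holds windows of both genes as the reverse complement. It had 3.13 and 2.51 TPM, from 140 and 103 counts, and was not called (adjusted p = 0.0985, exact test). Of the Hspa1a windows, 17.6% occur in Gm10501 or Gm20481 in the reverse orientation, and of the Hspa1b windows 8.69%.

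The inducible pair was a small part of its family. The pair held 0.214% and 0.266% of the summed TPM of the Hsp70 genes, and Hspa8, the constitutive Hsp70 of the cytosol, held 76.2% in both replicates. Hspa8 stood at 2265 and 2769 TPM, 356 and 287 times the pair. After it came Hspa5, the chaperone of the endoplasmic reticulum, at 330.93 and 429.88 TPM, the mitochondrial Hspa9 at 125.46 and 144.92 TPM, and Hsph1, a nucleotide exchange factor for Hsp70, at 72.37 and 85.99 TPM. All 12 other Hsp70 genes measured were detected. Of these, 8 were called higher and 0 lower in replicate 2, the same counts as under TMM and DESeq2 scaling, while spike-in totals gave 10 higher and 0 lower, with a median log2 ratio of counts of 0.26 beside 0.10 for all genes. The 8 calls with the gene total were small, from 1.08-fold in Hspa4l to 1.24-fold in Hspa5, below the 1.51-fold of Hspa1a. Their list's median log2 ratio of TPM + 1 was 0.23, beside 0.04 for all genes tested.

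Of 20 Hsp90, Hsp60, Hsp40 and small heat shock protein genes, all detected, 8 were called higher and 3 lower, with a median log2 ratio of TPM + 1 of 0.08; spike-in totals gave 14 higher and 1 lower. The cytosolic Hsp90 genes led this list, Hsp90aa1 at 1092 and 1084 TPM and Hsp90ab1 at 1004 and 1053 TPM. The Hsp40 cochaperones Dnaja1, at 485.01 and 507.77 TPM, and Dnajb6, at 237.16 and 246.01 TPM, followed. Hsf1, the factor that drives Hspa1a after heat shock, was at 27.93 and 31.12 TPM, Hsf2 at 31.17 and 33.79 TPM and Hsf4, known from the lens, at 0.63 and 0.51 TPM. Hsbp1, which binds Hsf1, was at 586.29 and 607.29 TPM. None of the 5 genes of this list was called by the exact binomial test under gene total, TMM or DESeq2 scaling. With the gene total, 0 of the 5 had an unadjusted p below 0.05, which at least 34.4% of all genes had, the share called at the adjusted p. With spike-in totals 3 were called higher.

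The kinases and factors that act on immediate early promoters were all present, 23 of 23 detected. Map2k2, a kinase of the Erk pathway, had 174.20 and 184.36 TPM, Mapk3, of the same pathway, 74.84 and 77.01 TPM, and the Jun kinase Mapk9 68.50 and 76.80 TPM. In this list 4 genes were called higher and 4 lower in replicate 2 with the gene total, 6 and 4 with DESeq2 scaling, and 10 and 1 with spike-in totals. Of all genes, DESeq2 scaling called 19.5% higher and 15.6% lower. Of 24 other immediate early genes, 22 were detected, 2 were called higher and 3 lower, against 5 higher and 1 lower with spike-in totals, and the median log2 ratio of TPM + 1 was 0.00. The highest were the growth regulator Myc at 43.08 and 44.29 TPM, Zfp36l1, which promotes decay of messenger RNA, at 38.08 and 38.07 TPM, the NF-kappaB inhibitor Nfkbia at 35.48 and 35.49 TPM, and Klf6 at 30.15 and 35.13 TPM. Each of these 4 exceeded Jun.

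Among 16 effector genes regulated by neuronal activity, 14 were detected. The kinase Plk2 had 110.37 and 119.19 TPM, the G protein regulator Rgs2 86.77 and 84.70 TPM, the neurite growth protein Nrn1 50.78 and 67.47 TPM, and Gadd45g 34.38 and 31.01 TPM. Of the 16, 2 were called higher and 2 lower with the gene total, 4 and 1 with DESeq2 scaling, and 7 and 0 with spike-in totals. Among all genes, the DESeq2 shares were 19.5% higher and 15.6% lower. Vgf, a secreted neuropeptide precursor, had 5.41 TPM in replicate 1 and 7.82 TPM in replicate 2 and was the only gene of the 10 immediate early, heat shock and stress lists to be called with a difference of at least 1.5-fold (1.51-fold; adjusted p = 2.812e-06, exact test). Over these 10 lists, 125 of 142 genes measured were detected, and of 139 tested 32 were called higher and 16 lower, 34.5% in all, beside 34.4% of all genes. With spike-in totals the split was 67 higher and 5 lower, or 51.8% called, beside 43.7% of all genes. With DESeq2 size factors it was 40 higher and 12 lower, or 37.4% called, beside 35.1% of all genes.

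**Figure D5:**
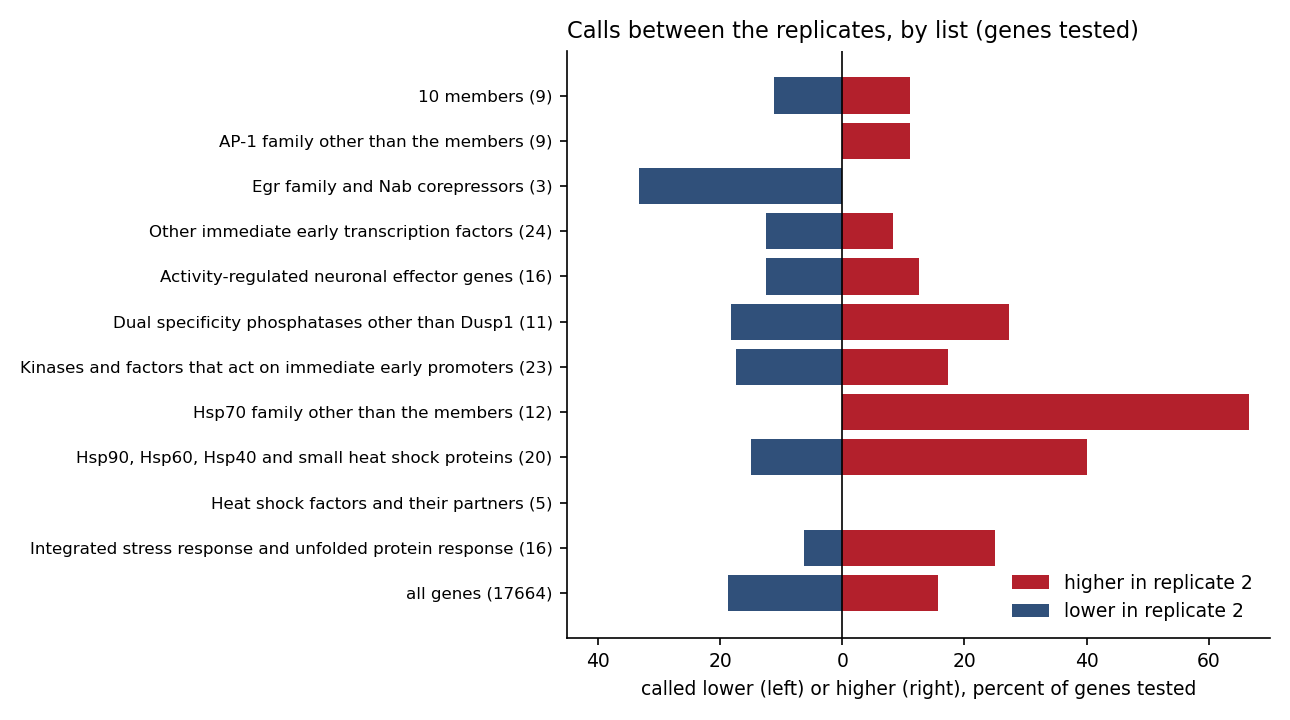
Percent of the genes tested in each list that the exact binomial test called lower (left of 0, blue) or higher (right of 0, red) in replicate 2 against replicate 1, with the number tested in parentheses. The Hsp70 list has 8 of 12 higher and 0 lower; the 9 members tested have 1 each way, beside 15.7% higher and 18.7% lower of all genes.

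Some marker genes of other cell types were called different between the replicates. The gene total, used here, called 15.7% of all genes higher and 18.7% lower. All 7 choroid plexus markers were detected and none was at 0; 5 were called lower and 0 higher in replicate 2, and they summed to 1950 TPM in replicate 1 and 1180 TPM in replicate 2. Of 8 markers of meninges and fibroblasts, all detected, 7 were lower and 1 higher, with sums of 793 and 664 TPM. Of 8 endothelial markers 3 were lower and 0 higher (215 and 211 TPM), and of 9 microglial markers 2 were lower and 0 higher (154 and 150 TPM). Pan-neuronal genes had 2 higher and 2 lower of 10 (4805 and 5185 TPM), and progenitor genes 2 higher and 3 lower of 8 (2521 and 2533 TPM). The microglial count of lower genes and the pan-neuronal counts were near the shares of all genes. The part of these cell types in the differences of Hspa1a and Ier2 was not tested.

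Promoter windows from the RefSeq table were found for 8 of the 10 genes, without Egr1 and Ier2, and were searched on both strands for letters known from promoters of this kind. The full cyclic AMP response element TGACGTCA occurred in Dusp1 alone, against 1.79% of 32851 promoters of the same length. Its core TGACG, which that element contains, occurred in 5 of 8, in Fos, Fosb, Junb, Atf3 and Dusp1, against 20.8% of promoters. The heat shock element GAANNTTC occurred in Hspa1a, Hspa1b and Jun, against 7.86%, and the inverted form TTCNNGAA in 0, against 8.52%. TGACATCA occurred in Jun alone, against 3.62%. CCAAT occurred in 5 of 8, Hspa1a and Hspa1b included, against 37.4%, and TATAAA in Fos and Junb, against 13.6%. Relative to the start, TATAAA began at -33 in Fos but at 0, the start itself, in Junb. The CCAAT match of Atf3 lay after the start, at 5. The Hspa1a and Hspa1b windows are identical in 296 of 300 bases, so their matches to the heat shock element and to CCAAT are not separate cases. Neither the AP-1 site TGANTCA, held by 7.81% of promoters, nor the CArG box bound by serum response factor, held by 1.63%, occurred in these 8 windows, which says only that those letters are not in them.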

How the data were processed

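Total RNA of 2 hindbrains formed 1 group. A mirVana kit was used to extract the RNA, libraries were made from 10 ng of molecules above 200 nt, and spike-ins were present, per the labels' protocols. Per the submitters' description of each library, the assembly was mm10 with annotation M4. No aligner, quantifier, version or strand setting is named, because none was given in the sources used here. Expected counts, as deposited by the authors, estimate the reads of each feature and were rounded for tests. TPM and FPKM, as deposited, had been corrected by the authors for length and library size, spike-ins included, so that spike-ins (8.15% and 7.72% of TPM) lower every gene. The deposited credibility bounds are score values that came with the authors' estimate.

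Symbols, coordinates and transcript names came from GENCODE M21 (GRCm38), matched on identifiers without version for 42462 of 43346 genes. Promoters came from RefSeq. Log2 ratios used TPM + 1, with replicate 2 on top; the added 1 shrinks the differences of low genes. The exact binomial test used genes with a mean of at least 10 counts, scaled by gene totals of 33727977 and 32450699, and was tested on simulated data. The simulated counts held set differences and counting noise, with no other spread between libraries, which is what the test assumes. They therefore do not show how the test behaves on these 2 libraries. The intervals of count ratios and the floor of 3 counts cover counting error only, because they hold no term for other spread between libraries. The reads carry no molecular identifiers, so PCR copies cannot be told from separate molecules, and the intervals make no allowance for such copies. They also leave out the uncertainty in dividing shared reads, as between Hspa1a and Hspa1b. Nothing beyond the labels shows that the spread between the 2 libraries is biological rather than technical.

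The members and lists were chosen with earlier results of these data known. Named genes were the 10 members, the 4 members with the highest mean TPM of each list, and list members called with at least 1.5-fold; Junos, Prdx2, Ergic1, Gm20481, Gm10501 and Hspa1l were added as neighbours, Hspa4l as the end of a range, and cell type lists are given by counts. The result of 1 gene that this rule takes is not reported here. Hspa14 had no matching identifier. Tests ran in scipy 1.17.1 under Python 3.11.15 (pandas 2.3.3, numpy 2.4.6), size factors came from DESeq2 1.42.0 and edgeR 4.0.16 under R 4.3.3, and plots from matplotlib 3.10.9.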

Additional observations from a re-analysis of the deposited data

How the results depend on the processing

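Of the 10 genes, 8 were detected with a limit of 0.5 TPM, the posterior mean, TPM rescaled without spike-in, numeric and mitochondrial features, and in either replicate alone, and 7 with a limit of 2 TPM or with FPKM. Leaving out replicate 1 or replicate 2 gave 8 in each case. The count of members called between the replicates, 2 with gene totals, was 1 with TMM factors and with DESeq2 size factors (Hspa1a in both). Of all genes, 34.9% and 35.1% were called with these. It was 0 when a difference of at least 2-fold was also required, which 3.05% of all genes met. In the exact binomial test 3 of the 9 members tested had an unadjusted p below 0.05. At least 34.4% of all genes did, because every gene called at the adjusted p also passes this cut. The count of members called was 2 with no filter on counts and with a mean of at least 50 (Ier2 and Hspa1a), and 2 with spike-in totals (Fos and Hspa1a). Hspa1a was called under every scaling and filter tried, with the 2-fold requirement as the exception. Over all genes, 17664 were tested and 6079 called with gene totals, against 7711 with spike-in totals and 539 with the 2-fold requirement.

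The direction of the small ratios of Jun, Junb and Dusp1 was not settled. The log2 ratio of TPM + 1 of Jun was 0.0085, against -0.057 with FPKM, -0.065 with gene totals, -0.041 for TMM and -0.037 for DESeq2 scaling of counts. That of Dusp1 was 0.024, against -0.042 with FPKM, -0.050 with gene totals, -0.026 for TMM and -0.022 for DESeq2 scaling. That of Junb was -0.012, against -0.088 with gene totals and 0.037 with spike-in totals. Spike-in totals moved the median of all genes by 0.12 from that with gene totals. The cause was not tested. Of the other alternatives, 63 of the log2 ratios kept direction, and kept the call where the exact test was run. It was run for scalings of counts only, so the alternatives in TPM or FPKM bear on direction alone. The 63 include scaling by the gene total, which is the main test itself. FPKM lowered every member's mean level. Counts under 100 (Fos in replicate 1, Atf3, Hspa1b, Fosb) limit those ratios.

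No paired analysis was possible because the study has 1 group, so no replicate number joins samples of different groups. The binomial test needs both libraries, so it was not run without a replicate.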
